A study of Mus musculus with 47 samples.

Results

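The axoneme is the microtubule core of the sperm tail, and 27 of the 23416 genes counted in mouse spermatozoa and liver carry the symbols of 4 of its gene families. The members were taken by symbol alone: dynein intermediate and light chains (3 genes), radial spoke proteins (6), tektins (5) and tubulin tyrosine ligase-like (TTLL) enzymes (13). No dynein heavy chain matched the symbol Dnah, because the deposited counts list these genes under the older symbol Dnahc. The 11 Dnahc heavy chains and 2 Dnalc light chains listed are therefore not members and are described apart, as a list added after the symbols had been seen.

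In a motile flagellum, outer doublets of microtubules surround a central pair. Outer and inner dynein arms walk along the neighbouring doublet, radial spokes relay signals between the central pair and the arms, tektins run as filaments inside the doublets, and TTLL enzymes add glutamate or glycine chains to tubulin. The genes are transcribed in spermatocytes and round spermatids, and mature spermatozoa keep remnants of these mRNAs.

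The series asked whether loss of the Polycomb protein SCML2 in fathers is followed by altered expression in their male descendants. Ctrl-F1 and KO-F1 males came from intracytoplasmic injection of testicular sperm of littermate wild-type and Scml2-KO fathers into BDF1 oocytes (background strain label BDF2), and KO-F2 males from natural mating of single KO-F1 males with C57BL/6 females (label BDF3). Scml2 is X-linked, so sons of a knockout father do not inherit the mutant allele, which was made with a zinc finger nuclease. All males were 8 to 12 weeks old. RNA was sequenced from swim-up motile cauda spermatozoa of Ctrl-F1, KO-F1 and KO-F2 and from liver of Ctrl-F1 and KO-F1, with 2 replicates per group. The labels do not say whether a replicate pooled several males, so p-values measure the spread between these samples. No Ctrl-F2 spermatozoa were analysed here. Among the spermatozoa libraries, those of KO-F2 alone carry the name of a sequencing run and the BDF3 label, and come from natural mating. Generation, mode of conception, background and run therefore cannot be told apart in comparisons with KO-F2.

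Counts per library totalled 1503733 to 2778171 in F1 spermatozoa, 8384266 and 11462105 in KO-F2 spermatozoa and 11339729 to 14278900 in liver. The pre-ribosomal transcript Rn45s took 15.7% to 28.7% of the counts in the F1 spermatozoa libraries and 3.52% and 13.3% in KO-F2, and its part in the comparisons with KO-F2 was not tested. Levels below are CPM, each count divided by the library total after scaling by the trimmed mean of M-values (TMM CPM). Hepatocyte markers summed to at most 8.48 TMM CPM in spermatozoa. Of the 13 multiciliated epithelium markers, Gmnc, Tmem212 and Fam216b had 0 counts in all 6 spermatozoa libraries, and between 4 and 7 were at 0 in a library. Others were present, such as 1700016K19Rik at 682 and 178 counts and Ccdc67 at 490 and 294 in Ctrl-F1 spermatozoa.

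The members made up a small share of the sperm RNA. Their share was 0.131% and 0.0699% in the Ctrl-F1 libraries, against 0.0518% and 0.0492% in KO-F1, and 0.132% and 0.0989% in KO-F2 spermatozoa. The 95% Wilson intervals, which cover counting error only, reached from 0.0658% to 0.0742% for Ctrl-F1 replicate 2 and from 0.0492% to 0.0545% for KO-F1 replicate 1. On this raw share, both KO-F1 libraries lay below both Ctrl-F1 libraries, and the KO-F2 shares lay in the range of Ctrl-F1 or just above it.

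As a level per length (counts per kilobase of exon, scaled to the same sum in every library), Rsph1 stood highest of the members in Ctrl-F1 spermatozoa at 189 ± 104 (SD, n = 2), above 98.1% of genes. Tekt1 (92.2 ± 42.8), Tekt4 (78.3 ± 21.4), Rsph6a (70.1 ± 26.4) and Ttll10 (69.7 ± 17.3) followed, and their spreads overlap. Dnali1 (59.2), Ttll13 (53.0), Tekt2 (51.4) and Rsph3a (49.7) formed the next level, again within the spread of replicates. The order ended with Ttll12 (3.09), Ttll11 (2.38), Ttll2 (1.97) and Rsph4a at 0.

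Rsph4a and Rsph6a encode alternative proteins of the spoke head. Rsph4a, known from airway cilia, had 0 counts in each of the 6 spermatozoa libraries, where 3 counts correspond to between 0.262 and 2.00 CPM. Rsph6a, known from the testis, had 291 and 85 counts in Ctrl-F1 spermatozoa and 0 in each of the 4 liver libraries. Among the heavy chains, Dnahc8 had 374 and 163 counts in Ctrl-F1 spermatozoa. Dnahc5, a heavy chain of airway cilia, had 0 counts in the 4 F1 spermatozoa libraries and 5 and 4 in KO-F2. Dnahc9 and Dnahc11 were low but present, at 3 and 7 and at 16 and 11 counts in Ctrl-F1 spermatozoa, so no general split of the heavy chains is claimed.

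Between Ctrl-F1 spermatozoa and Ctrl-F1 liver, 16 of 24 members tested passed edgeR's quasi-likelihood test as higher in spermatozoa (fold of at least 2, Benjamini-Hochberg adjusted p under 0.01), against 18.6% of all 13204 genes tested, and 0 as lower, against 11.6%. Both spermatozoa libraries lay above both liver libraries for 23 of 24 members (38.2% of genes) and below for 0 (41.9%), and 23 of 24 had a log2 fold change above 0 (49.7%) and an unadjusted p under 0.05 (31.1%), with 1 below 0 (50.3%) and 0 lower at that p (27.9%). Most members passed the filter on low counts through the spermatozoa group, so these counts are a description and no support; with at least 10 counts required in every library, 5 members were left and 3 of them, Rsph3a, Rsph3b and Ttll4, were called higher, against 18.9% of genes. Tissue and library kit differed together here and cannot be told apart. Tekt1, Tekt2, Tekt3, Tekt4, Rsph6a, Ttll2, Ttll6, Ttll9 and Ttll10 had 0 counts in both Ctrl-F1 liver libraries. Against a floor of 3 counts over both liver libraries together, Rsph6a was at least 1052-fold, Ttll10 at least 904-fold and Tekt3 at least 294-fold higher in spermatozoa.

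Ttll13 had 295 and 105 counts in Ctrl-F1 spermatozoa against 2 and 4 in liver, a log2 fold change of 8.95 ± 0.53 (SE; edgeR adjusted p = 0.00121). Rsph9 was at 6 and 7 counts in liver, with a log2 fold change of 6.84 ± 0.46 (edgeR adjusted p = 0.00121). Rsph3a had 62 and 63 liver counts and the smallest fold change of the 16, 3.73 ± 0.37 (edgeR adjusted p = 0.00200), a call lost when either liver replicate was left out (edgeR adjusted p = 0.0144 and 0.0150). Dnaic2 lost its call without liver replicate 2, and Ttll7 when either liver replicate was left out. Ttll12 alone had a fold change below 0, at -0.84 ± 1.51 (edgeR adjusted p = 0.672), with 0 and 16 counts in spermatozoa against 148 and 176 in liver. That value rested on Ctrl-F1 spermatozoa replicate 1, where it had 0 counts, and was 0.08 without it.

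**Figure D1:**
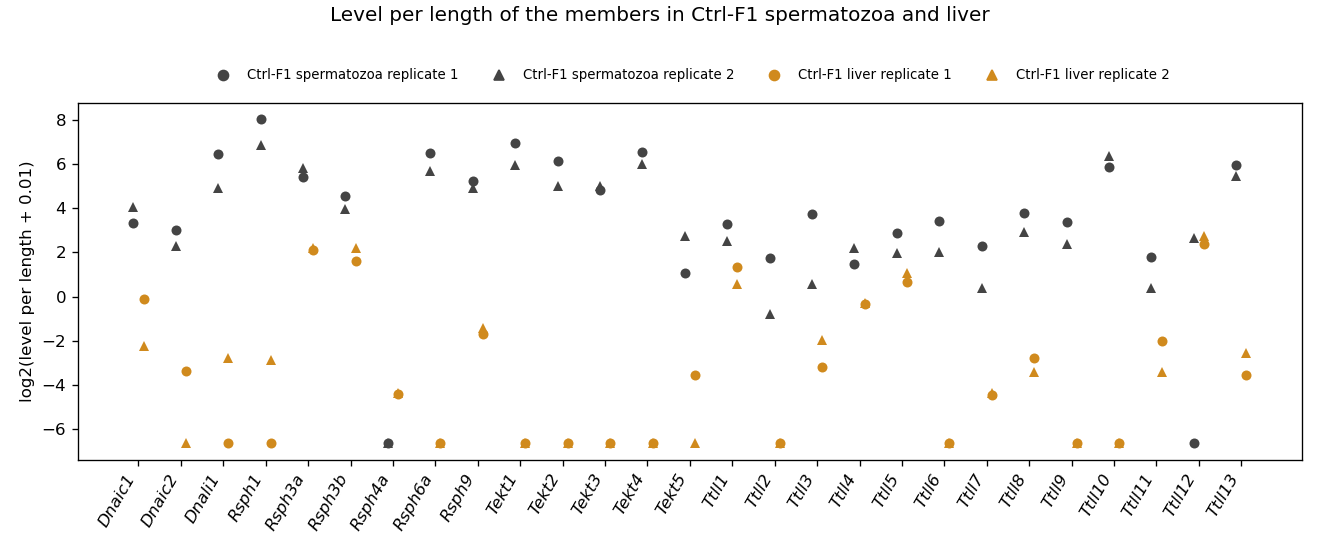
Level per length (reads per kilobase of exon, scaled to the same sum in every library, on a log2 scale after adding 0.01) of each member in the 2 Ctrl-F1 spermatozoa and 2 Ctrl-F1 liver libraries, each point 1 library. Points at the bottom are 0 counts: Rsph4a lies there in spermatozoa, and the tektins Tekt1 to Tekt4, Rsph6a and Ttll10 lie there in liver.

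RFX factors, which regulate ciliary genes, bind the X-box. Windows of 250 bases before the first transcript start listed for a gene were matched for 23 of 27 members in RefSeq (GRCm38.p6); Rsph1, Rsph4a, Ttll1 and Ttll11 were not matched. For 5 of the 23, Ttll9, Ttll6, Dnaic2, Ttll2 and Tekt4, that start lay over 1000 bases inside the gene, so these windows are internal to the gene. The X-box letters GTTGCCNNG occurred on either strand in 4 of 23 (17.4%), against 4.19% of 27025 promoters, and the longer X-box core in 0 (0.448%). Of the other motifs searched on both strands, the CRE letters TGACGTCA occurred in 0 of 23 (1.62% of all), their part TGACG in 3 (17.9%), CCAAT in 11 (34.5%), TATAAA in 1 (13%), CACGTG in 1 (6.05%) and GGGCGG in 10 (32.9%). The windows of Tekt2 (chr4:126325689-126325938, minus strand) and Ttll10 (chr4:156050818-156051067, minus strand) are shown because each holds these letters and lies directly before the 5′ end of its gene, with the letters of either strand in capitals. Of the other two, Ttll8 holds the letters at -228 to -220 from a start 633 bases inside the gene, and Dnaic2 holds them before a start 6078 bases inside the gene.
Tekt2: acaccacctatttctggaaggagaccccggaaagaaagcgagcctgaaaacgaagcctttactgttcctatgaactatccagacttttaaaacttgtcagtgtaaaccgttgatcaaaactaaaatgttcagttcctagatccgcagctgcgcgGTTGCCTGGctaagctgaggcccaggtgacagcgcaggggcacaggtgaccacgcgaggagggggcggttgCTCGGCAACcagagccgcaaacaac
Ttll10: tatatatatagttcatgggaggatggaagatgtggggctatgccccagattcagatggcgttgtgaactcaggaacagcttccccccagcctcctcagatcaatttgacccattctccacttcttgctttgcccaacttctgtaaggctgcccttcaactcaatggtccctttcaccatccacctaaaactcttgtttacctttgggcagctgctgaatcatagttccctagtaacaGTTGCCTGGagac
Tekt2 holds 2 such sites, at -96 to -88 and, on the other strand, at -25 to -17 from the start. Ttll10 holds 1 at -13 to -5. These letters are a description and not evidence of binding.

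The first comparison asked how the axonemal transcripts of spermatozoa differed between sons of knockout and of wild-type fathers. Most members stood lower in spermatozoa of KO-F1 than of Ctrl-F1 with TMM scaling, but no single member passed the test. The median log2 fold change of the 24 members tested was -1.39, against 0.02 for all 10785 genes, and 22 of 24 lay below 0, against 49.5% of genes, and 2 above, against 50.5%. Scaled instead to the 35 late spermatogenesis markers with at least 10 counts in every spermatozoa library, the direction turned. The median was then 0.35 against 1.73 for all genes, with 18 of 24 members above 0. Late markers were themselves lower in KO-F1 with TMM scaling (median log2 fold change -1.69 over 38 tested). The paper lists Prm1, Prm2, Prm3 and Tnp2 among its genes downregulated in KO-F1. This scaling thus raises every gene in KO-F1, and any gene lowered less than the late markers turns upward by construction. In bulk RNA, fewer cells of a type and less RNA per cell cannot be told apart.

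Both KO-F1 libraries lay below both Ctrl-F1 libraries for 17 of 24 members, against 25.4% of all genes, and above both for 0, against 28.6%. Scaled to the late markers, the groups were apart in this direction for 1 of 24 members, against 3.16% of genes. By edgeR's test 0 members were called in either direction, as were 0% of all genes, while 9 members had an unadjusted p under 0.05 with a lower level, against 10.6% of genes, and 0 with a higher level (8.88%). DESeq2 called 1 member, Ttll13, lower (adjusted p = 0.00242), against 1.58% of genes. The smallest edgeR adjusted p over all genes was 0.140, which Ttll13 shared.

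The members' median was -1.39 with all libraries and -0.83 without Ctrl-F1 replicate 1, against 0.02 and 0.24 for all genes. That library held more of the members than replicate 2: over 21 members with at least 10 counts in both, the median ratio of replicate 1 to replicate 2 was 1.75, against 0.923 over all genes. Dnaic1, Rsph3a, Tekt3, Ttll4 and Ttll10 went the other way.

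KO-F2 spermatozoa were close to Ctrl-F1 in most members. The median log2 fold change of the 26 members tested against Ctrl-F1 was -0.06, against 0.07 for all 13149 genes, with 11 members above 0 (53% of genes) and 15 below (47%). No member was called by edgeR or by DESeq2, against 0% of genes by edgeR and, by DESeq2, 0.798% higher and 0.685% lower; 2 members had an unadjusted p under 0.05, both with a lower level (5.83% of genes), and 0 with a higher level (9.07%). The sign of the median depended on the control library: it was 0.35 without Ctrl-F1 replicate 1 and -0.44 without Ctrl-F1 replicate 2. The medians of all genes were then 0.43 and 0.25, so the members' median was the lower both times. Both KO-F2 libraries lay below both Ctrl-F1 libraries for Rsph3a and Ttll4 (2 of 26, against 19.5% of genes) and above them for Ttll10 (1 of 26, against 28.5%). Scaled to the late markers, the members' median was -0.35, against -0.24 for all genes, with 5 above 0 and 21 below, and 8 of 26 had both KO-F2 libraries below both controls, against 27.6% of genes.

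Against KO-F1, KO-F2 spermatozoa held more of most members. The median log2 fold change was 1.51, against 0.13 for all 13517 genes, and 25 of 26 members lay above 0, against 53.1% of genes, and 1, Ttll4, below, against 46.9%. Scaled to the late markers, the direction turned, with a median of -0.66 against -2.05 for all genes. Late markers were themselves higher in KO-F2 than in KO-F1 with TMM scaling (median log2 fold change 2.37 over 39 tested), so this scaling lowers every gene in KO-F2. With TMM scaling 1 of the 26 members, Ttll13, was called higher and 0 lower, against 2.11% and 0.2% of genes. With late marker scaling 0 were called higher and 1, Rsph3a, lower, against 0.37% and 35.3% of genes. DESeq2 called 5 of 26 higher, namely Ttll13, Rsph1, Ttll10, Rsph9 and Dnali1, against 7.48% of genes. In edgeR, keeping every gene with a count, or only genes with 10 counts in every library, raised the members called higher from 1 to 9, but the share of all genes called higher also rose, from 2.11% to 9.84% and 14.7%. Thinning all libraries to 1 depth gave 3 members, against 5.26% of genes.

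Both KO-F2 libraries lay above both KO-F1 libraries for 21 of 26 members, against 33.9% of genes, and below both for 0, against 32.4%. Under late marker scaling this held for 2 of 26, against 8.52% of genes. The 2 comparisons with KO-F1, and those with Ctrl-F1, share libraries, and KO-F2 libraries were the deepest. With counts thinned to the depth of the shallowest KO-F1 library, 20 of 24 members tested lay above, against 34.9% of genes.

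**Figure D2:**
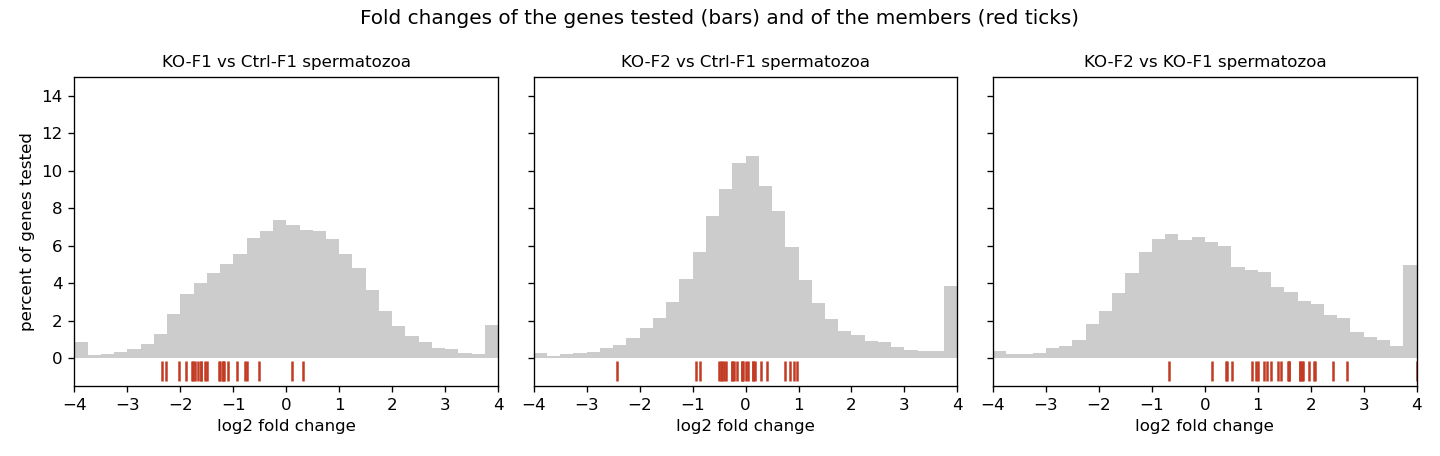
Distribution of log2 fold changes over all genes tested (grey bars, percent of genes per 0.25) and of the members (red ticks) in the 3 comparisons between groups of spermatozoa; the outermost bars hold values beyond the axis. The members' ticks centre on -1.39, -0.06 and 1.51, against medians of 0.02, 0.07 and 0.13 for all genes; with late marker scaling the medians of KO-F1 over Ctrl-F1 and of KO-F2 over KO-F1 become 0.35 and -0.66, against 1.73 and -2.05 for all genes, and that of KO-F2 over Ctrl-F1 becomes -0.35, against -0.24.

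**Figure D3:**
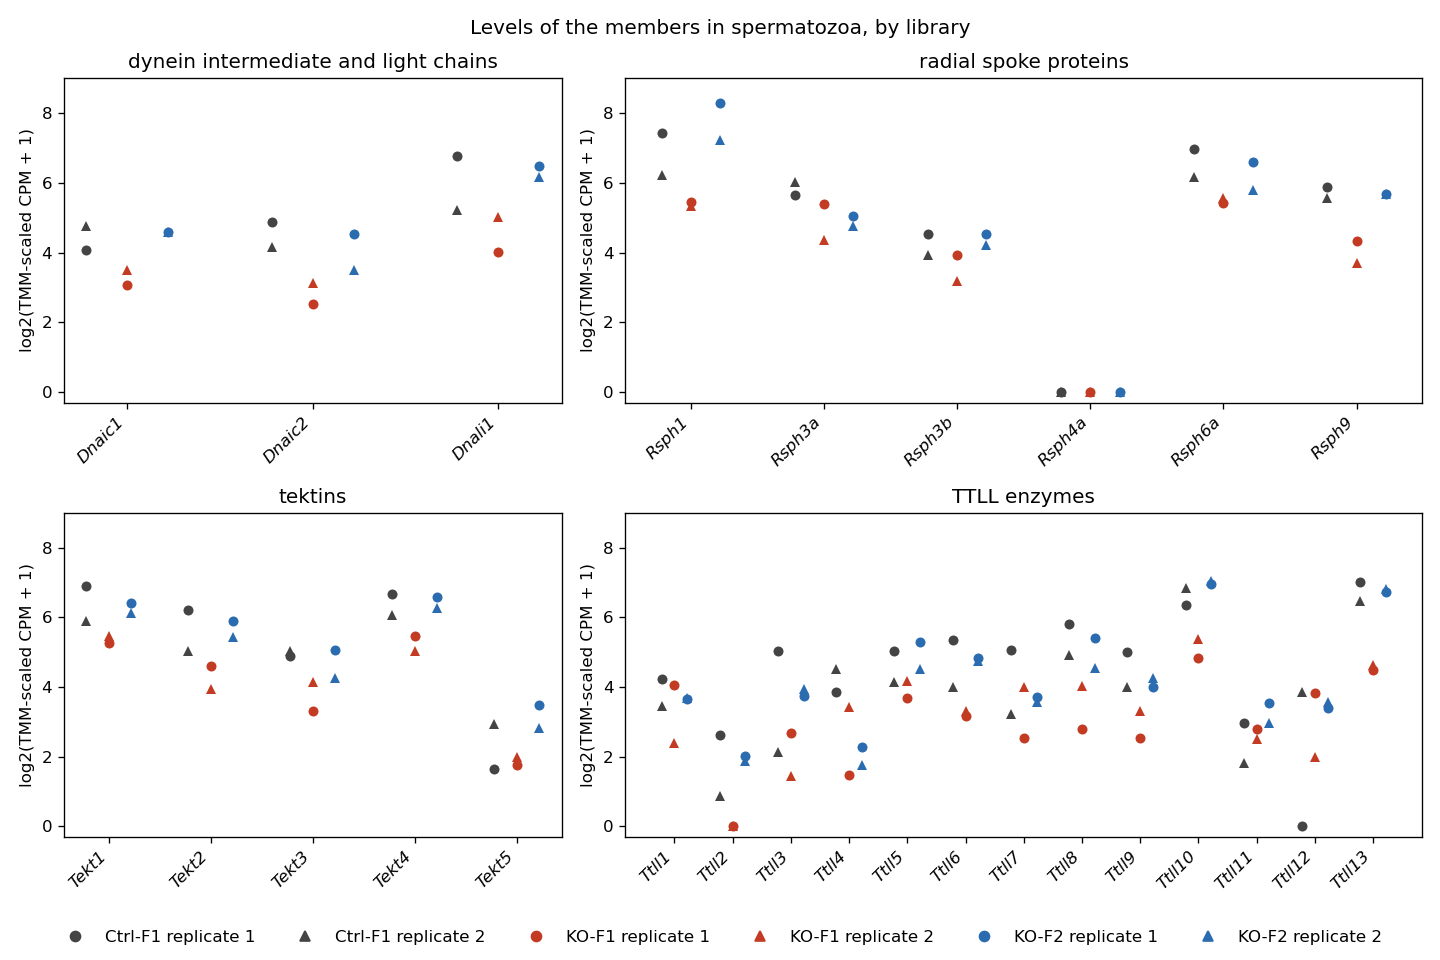
Level of every member in each of the 6 spermatozoa libraries (log2 of TMM CPM + 1), by family; colour marks the group and shape the replicate. For Ttll13, Rsph9 and Tekt4, for example, both KO-F1 points lie below the other 4, an order that depends on the TMM scaling.

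Dnaic1 and Dnaic2 encode intermediate chains of the outer dynein arm, and Dnali1 a light intermediate chain of inner arms. Dnali1 stood at 109 and 36.1 TMM CPM in Ctrl-F1, against 15.2 and 31.6 in KO-F1 and 88.9 and 71.6 in KO-F2 spermatozoa. Its control libraries lay far apart, and the higher KO-F1 library came close to the lower control. Its log2 fold change was -1.67 ± 0.69 (SE) in KO-F1 against Ctrl-F1 (edgeR adjusted p = 0.237) and 1.97 ± 0.45 in KO-F2 against KO-F1 (edgeR adjusted p = 0.0262). The first was -0.62 without Ctrl-F1 replicate 1 and -2.27 without KO-F1 replicate 2. Leaving out each replicate in turn, the second ranged from 1.47 to 2.55, the latter without KO-F1 replicate 2. Dnaic1 was at 15.9 and 26.1 in Ctrl-F1, against 7.44 and 10.2 in KO-F1 and 23.3 and 22.9 in KO-F2. Dnaic2 was at 28.5 and 16.8, 4.76 and 7.68, and 22.3 and 10.4 in the same order. For both intermediate chains the KO-F1 libraries were the lowest, at log2 fold changes of -1.25 ± 0.79 and -1.89 ± 0.83 against Ctrl-F1 (edgeR adjusted p = 0.433 and 0.261), and KO-F2 over KO-F1 was 1.57 ± 0.47 for Dnaic1 (edgeR adjusted p = 0.0546).

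Of the spoke genes, Rsph1, Rsph6a and Rsph9 encode spoke head proteins, and Rsph3a and Rsph3b encode the stalk protein RSPH3. Rsph1 (chromosome 17, 31255019 to 31277296, minus strand, GRCm38.p6) stood at 171 and 74.0 TMM CPM in Ctrl-F1, against 43.2 and 39.2 in KO-F1 and 312 and 149 in KO-F2 spermatozoa. The 3 groups were ordered KO-F1, Ctrl-F1, KO-F2, with overlap between the last 2. Its log2 fold change was -1.61 ± 0.52 in KO-F1 against Ctrl-F1 (edgeR adjusted p = 0.166), 2.68 ± 0.45 in KO-F2 against KO-F1 (0.0121) and 0.91 ± 0.55 in KO-F2 against Ctrl-F1 (0.507). Without Ctrl-F1 replicate 1 the first was -0.84 and the third 1.71, and without KO-F2 replicate 1 the second was 2.02 and the third 0.31.

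Rsph9 was at 58.2 and 46.2 TMM CPM in Ctrl-F1, against 19.4 and 11.9 in KO-F1 and 50.1 and 50.4 in KO-F2. Its KO-F2 libraries lay inside the range of Ctrl-F1, and its log2 fold changes were -1.76 ± 0.57 for KO-F1 over Ctrl-F1 (edgeR adjusted p = 0.166) and 1.85 ± 0.39 for KO-F2 over KO-F1 (0.0216). Rsph6a was at 125 and 71.4, 42.0 and 46.5, and 97.0 and 54.8 TMM CPM in Ctrl-F1, KO-F1 and KO-F2. Its log2 fold changes were smaller, at -1.19 ± 0.48 and 0.97 ± 0.40 in the same comparisons (edgeR adjusted p = 0.230 and 0.124).

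Rsph3a and Rsph3b are near-identical copies on chromosome 17, sharing 1504 stretches of 75 bases, the read length, which are 65.5% of those in Rsph3a and 69.3% of those in Rsph3b. Only uniquely aligned reads were counted, so the counts of both genes are uncertain. Rsph3a was at 49.6 and 63.9 TMM CPM in Ctrl-F1, against 40.8 and 19.6 in KO-F1 and 32.3 and 25.9 in KO-F2. It differed from most other members in that both later groups were below Ctrl-F1, with log2 fold changes of -0.93 ± 0.55 for KO-F1 (edgeR adjusted p = 0.403) and -0.94 ± 0.37 for KO-F2 (0.314). Leaving out each replicate in turn, the first ranged from -1.53, without KO-F1 replicate 1, to -0.49. Rsph3b was at 21.985 and 14.3, 14.3 and 8.10, and 22.2 and 17.8, and its groups were not apart from Ctrl-F1.

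Tektins form the filaments inside the doublets. Tekt1 stood at 119 and 58.8 TMM CPM in Ctrl-F1, against 37.2 and 43.1 in KO-F1 and 84.9 and 68.3 in KO-F2 spermatozoa. Tekt2 was at 72.9 and 31.9, 23.5 and 14.5, and 58.8 and 42.4. For both, each KO-F1 library was lower than the other 4, with log2 fold changes of -1.18 ± 0.51 and -1.51 ± 0.63 against Ctrl-F1 (edgeR adjusted p = 0.257 and 0.243). Without Ctrl-F1 replicate 1 these were -0.55 and -0.75.

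Tekt4 was at 100.01 and 66.4 TMM CPM in Ctrl-F1, against 42.9 and 31.99 in KO-F1 and 94.5 and 76.3 in KO-F2. Tekt3 was at 28.9 and 31.9, 8.93 and 16.6, and 32.2 and 18.2. Their log2 fold changes against Ctrl-F1 were -1.19 ± 0.48 and -1.26 ± 0.68 (edgeR adjusted p = 0.230 and 0.356). From KO-F1 to KO-F2 the log2 fold changes were 1.12 ± 0.34 for Tekt1, 1.59 ± 0.41 for Tekt2 and 1.37 ± 0.34 for Tekt4 (edgeR adjusted p = 0.0554, 0.0371 and 0.0334). Tekt5 had 5 to 8 counts in each F1 spermatozoa library and was not tested between F1 groups.

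Ttll13, a polyglutamylase (chromosome 7, 80246353 to 80260821, plus strand, GRCm38.p6), stood at 127 and 88.2 TMM CPM in Ctrl-F1, against 21.4 and 23.9 in KO-F1 and 104 and 111 in KO-F2. The replicates of KO-F1 and of KO-F2 were close, and KO-F2 lay inside the range of Ctrl-F1. Its log2 fold change of -2.28 ± 0.48 in KO-F1 against Ctrl-F1 did not pass (edgeR adjusted p = 0.140), and that of 2.42 ± 0.33 in KO-F2 against KO-F1 did (0.00954). The call was lost in a model of all 3 groups (edgeR adjusted p = 0.0107), without either KO-F2 replicate (0.0153 and 0.0131) and with late marker scaling (0.557, at a log2 fold change of 0.26).

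Ttll10, which elongates glycine chains, was at 81.0 and 113 TMM CPM in Ctrl-F1, against 27.4 and 40.5 in KO-F1 and 123 and 132 in KO-F2. Its 3 groups did not overlap, in the order KO-F1, Ctrl-F1, KO-F2. The log2 fold changes were -1.53 ± 0.48 for KO-F1 over Ctrl-F1 (edgeR adjusted p = 0.157), 2.08 ± 0.35 for KO-F2 over KO-F1 (0.0122) and 0.41 ± 0.31 for KO-F2 over Ctrl-F1 (0.612). Ttll8, which starts glycine chains, was at 55.6 and 29.4, 5.95 and 15.4, and 41.5 and 22.4, with a log2 fold change of -2.03 ± 0.74 in KO-F1 (edgeR adjusted p = 0.195). Leaving out each replicate in turn, that value ranged from -2.85, without KO-F1 replicate 2, to -1.46. Its KO-F2 libraries overlapped Ctrl-F1.

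Among the other glutamylases, Ttll6 was at 39.7 and 15.1 TMM CPM in Ctrl-F1, against 8.04 and 8.96 in KO-F1 and 27.6 and 25.7 in KO-F2. Ttll9 was at 31.0 and 15.1, 4.76 and 8.96, and 14.9 and 18.1. Both had each KO-F1 library below the other 4, and Ttll6 had a log2 fold change of 1.83 ± 0.45 from KO-F1 to KO-F2 (edgeR adjusted p = 0.0311). Ttll5 was at 31.9 and 16.8, 11.9 and 17.1, and 38.0 and 22.1, and Ttll7 at 32.3 and 8.40, 4.76 and 14.9, and 12.2 and 10.8. For these 2 genes KO-F1 overlapped Ctrl-F1.

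Ttll4, another glutamylase, went against the family. It was at 13.4 and 21.8 TMM CPM in Ctrl-F1, against 1.79 and 9.81 in KO-F1 and 3.89 and 2.42 in KO-F2, so that KO-F2 remained below Ctrl-F1. Its log2 fold change in KO-F2 against Ctrl-F1 was -2.43 ± 0.71 (unadjusted p = 0.0137, edgeR adjusted p = 0.225), the smallest p of the members in that comparison. Ttll2 had 12 and 1 counts in Ctrl-F1, against 0 and 0 in KO-F1 and 35 and 22 in KO-F2. Against a floor of 3 counts over both KO-F1 libraries, it was at least 6.31-fold higher in KO-F2; the fitted adjusted p was 0.0446 and no bound follows from the fit. Ttll1, Ttll3, Ttll11 and Ttll12 ranged from 0 to 31.5 TMM CPM and their KO-F1 libraries overlapped Ctrl-F1.

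**Figure D4:**
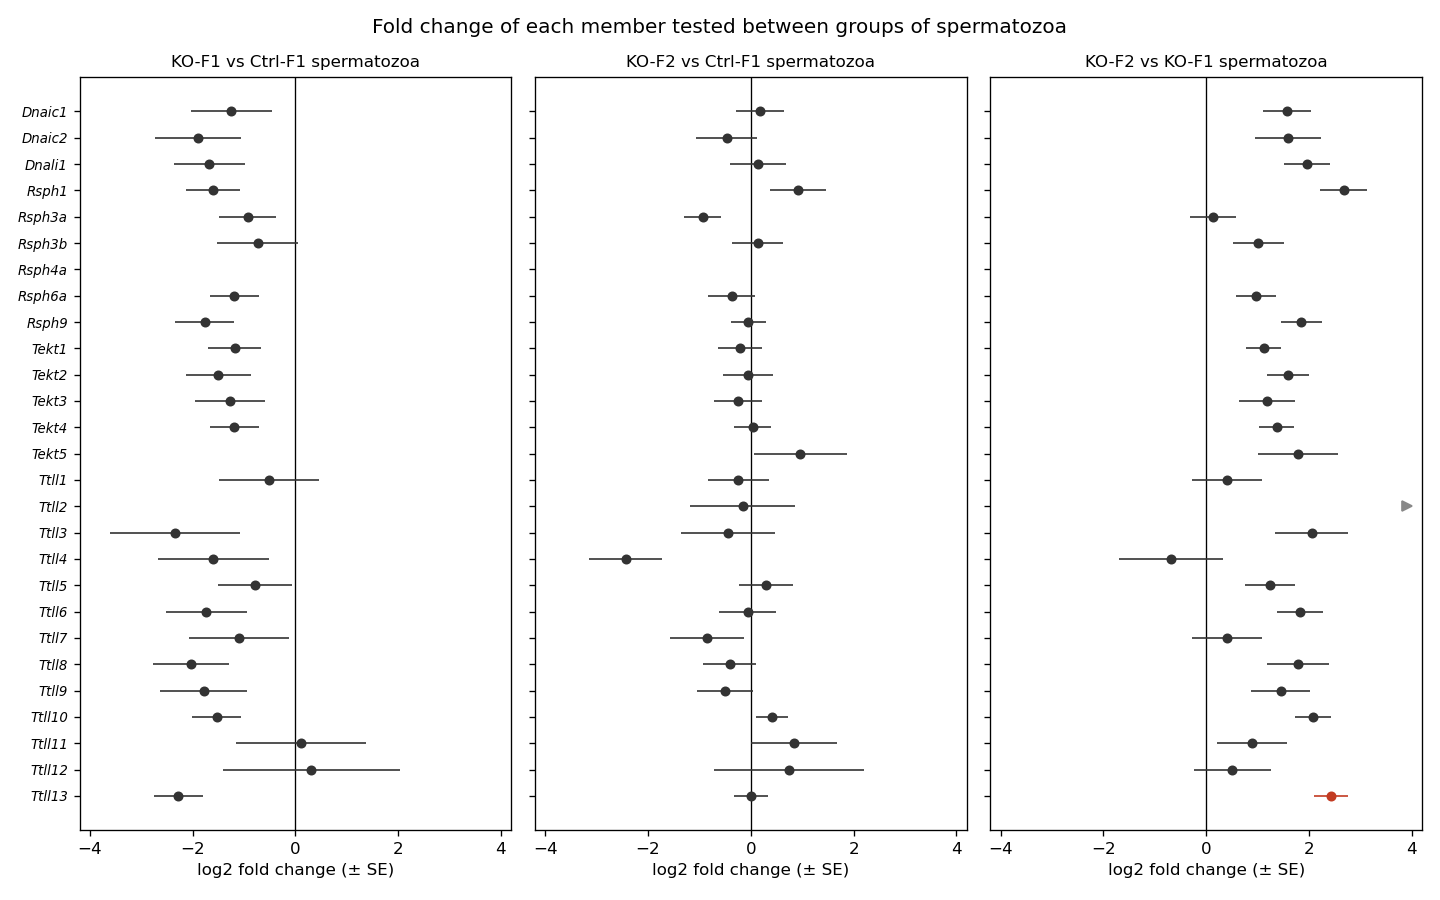
Log2 fold change with its standard error for every member tested between groups of spermatozoa (2 libraries per group, TMM scaling); red marks the 1 call and the grey arrow Ttll2, whose KO-F1 libraries are at 0. Against Ctrl-F1, 22 of 24 members lie below 0 in KO-F1 and 15 of 26 in KO-F2, and 25 of 26 lie above 0 in KO-F2 against KO-F1; with late marker scaling 18 of 24 lie above 0 in KO-F1 against Ctrl-F1 and 23 of 26 below 0 in KO-F2 against KO-F1, and 21 of 26 below 0 in KO-F2 against Ctrl-F1.

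Between KO-F1 and Ctrl-F1 spermatozoa, 10 dynein chains under older symbols were tested, and 9 lay below 0 (49.5% of genes). For 8 of them both KO-F1 libraries were below both Ctrl-F1 libraries (25.4%). Their median log2 fold change was -1.75, and edgeR called 0, as it did 0% of all genes. Dnahc8, an outer arm heavy chain of the sperm tail, stood at 161 and 137 TMM CPM in Ctrl-F1, against 48.8 and 68.2 in KO-F1 and 149 and 135 in KO-F2. Its log2 fold change was -1.37 ± 0.43 against Ctrl-F1 (edgeR adjusted p = 0.157) and 1.46 ± 0.34 from KO-F1 to KO-F2 (0.0278). Dnahc17, the other outer arm heavy chain of the sperm tail, had -1.60 ± 0.66 and 1.70 ± 0.43 (edgeR adjusted p = 0.238 and 0.0349).

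Against Ctrl-F1, both KO-F2 libraries were lower for 5 of 11 of these chains tested, against 19.5% of genes. They were Dnahc6, Dnahc7a, Dnahc7b, Dnahc10 and Dnahc11 (edgeR adjusted p from 0.375 to 0.676). Of the 11, 0 were called, as were 0% of all genes. Dnahc6, an inner arm heavy chain, had 56 and 18 counts in Ctrl-F1, against 3 and 0 in KO-F1 and 98 and 18 in KO-F2, or 24.1 and 15.1, 0.893 and 0, and 8.65 and 2.18 TMM CPM. Dnahc7a was at 38.8 and 77.3 TMM CPM in Ctrl-F1, against 11.6 and 17.1 in KO-F1 and 14.7 and 33.4 in KO-F2. Both genes were singled out after their values had been seen, and Dnahc7a shares 19.4% of its 75-base stretches with Dnahc7b, so its counts are uncertain. Dnalc4 stood opposite to the rest, at 44.0 and 21.8, 50.9 and 68.7, and 46.1 and 37.0.

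Other parts of the axoneme were also mostly lower in KO-F1 with TMM scaling. Both KO-F1 libraries were below both Ctrl-F1 libraries for 9 of 13 other radial spoke proteins tested, 10 of 13 central pair proteins, 11 of 19 doublet inner proteins, 3 of 5 docking complex genes, 4 of 12 nexin-dynein genes and 5 of 12 dynein arm assembly factors, against 25.4% of all genes. Their median log2 fold changes were -1.61, -1.503, -1.55, -1.84, -1.62 and -0.66. By edgeR 0 were called, as were 0% of all genes. By DESeq2 2, 0, 2, 0, 0 and 1 were called lower, against 1.58% of all genes. The cytoplasmic and intraflagellar dyneins (median -0.71) and the tubulin modification partners (median -0.37) had both KO-F1 libraries below both Ctrl-F1 libraries for 8 of 15 and 6 of 15 genes tested, against 25.4% of all genes, and above for 3 of 15 each, against 28.6%.

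Between KO-F2 and KO-F1, the doublet inner proteins called higher included 1110017D15Rik, with a log2 fold change of 3.16 ± 0.38 (edgeR adjusted p = 0.00911), and 1700026L06Rik, with 2.91 ± 0.43 (edgeR adjusted p = 0.00982). In the other 7 pathway lists 0 were called. Of all genes, 2.11% were called higher and 0.2% lower in this comparison. Ropn1l, a spoke-associated protein at 478 and 262, 99.7 and 103, and 475 and 284 TMM CPM, had a log2 fold change of 2.09 ± 0.38 (edgeR adjusted p = 0.0145). Dnaaf1, an assembly factor of dynein arms at 442 and 241, 75.6 and 108, and 364 and 269 TMM CPM, had 1.97 ± 0.37 (edgeR adjusted p = 0.0153).

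The 27 members summed to 1375 and 883 TMM CPM in Ctrl-F1, against 428 and 437 in KO-F1 and 1341 and 1005 in KO-F2. The 40 late spermatogenesis markers summed to 163586 and 175692, 57035 and 47216, and 189919 and 191536. With TMM scaling both sums were lowest in the 2 KO-F1 libraries. In KO-F1 against Ctrl-F1, 35 of 38 late markers tested had both libraries below both controls, against 25.4% of all genes. Their median log2 fold change was -1.69. Of the late markers edgeR called 0, as it did 0% of all genes, and DESeq2 called 24 lower, against 1.58% of genes. As a percent of the late marker sum, the members' sum was 0.840% and 0.503% in Ctrl-F1, against 0.751% and 0.926% in KO-F1, and 0.706% and 0.525% in KO-F2, and the 3 groups overlapped.

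The 30 epididymal epithelium markers summed to 28990 and 12036 TMM CPM in Ctrl-F1, against 39309 and 24768 in KO-F1 and 7268 and 3784 in KO-F2. The sums of the F1 groups overlapped, and Crisp1 with Cd52 made up most of every sum. Cd52 was at 7029 and 3016 in the controls, against 25397 and 10792 in KO-F1. Crisp1, at 19098 and 6885 in the controls, stayed inside that range in KO-F1 (7632 and 10266.5). Of 21 markers tested, 14 lay above 0 in KO-F1 against Ctrl-F1 (50.5% of genes) and 7 below (49.5%). Both KO-F1 libraries were above both controls for 6 (28.6%) and below for 2 (25.4%). The 20 leukocyte markers summed to 471 and 1197, 386 and 616, and 4960 and 6168, highest in KO-F2. The 13 multiciliated epithelium markers summed to 567 and 457, 214 and 243, and 401 and 509. Most of that list's counts came from 1700016K19Rik and Ccdc67. Its regulator Foxj1 was at 4.74 and 8.40, 1.49 and 0, and 18.2 and 9.82 TMM CPM. These levels rest on 11 and 10, 5 and 0, and 206 and 81 counts, with the KO-F2 libraries the deepest. Between 1 and 7 of the 30 epididymal and between 0 and 4 of the 20 leukocyte markers were at 0 in a library. The part of these cells in the members' values was not tested.

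**Figure D5:**
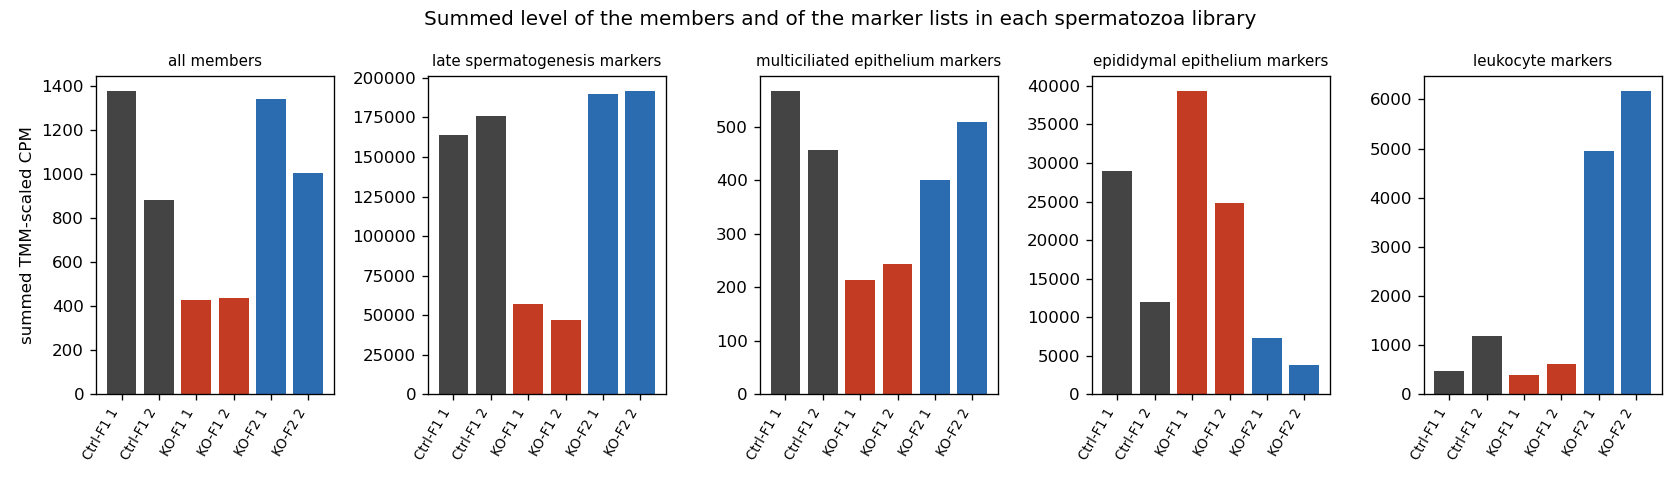
Summed TMM CPM of the 27 members and of 4 marker lists in each of the 6 spermatozoa libraries, each bar 1 library on its own linear axis from 0. With TMM scaling the members and the late spermatogenesis markers are lowest in the 2 KO-F1 libraries, the epididymal markers are lowest in KO-F2 and the leukocyte markers highest there.

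In liver the members summed to 32.3 to 35.0 TMM CPM, and 6 of 27 passed the filter on low counts: Rsph3a, Rsph3b, Ttll1, Ttll4, Ttll5 and Ttll12. Between KO-F1 and Ctrl-F1 liver 0 of 6 were called, against 0% of 11505 genes, and 0 of 6 had an unadjusted p under 0.05 (3.99% of genes higher, 5.42% lower). The log2 fold change was below 0 for 4 of 6 (50.6% of genes) and above 0 for 2 (49.4%). After TMM scaling both KO-F1 libraries were lower for 2 of 6, Rsph3b and Ttll4 (21.4% of genes), and higher for 1, Ttll5 (20.1%). Rsph3b had 23 and 19 counts in KO-F1 liver and 37 and 53 in that of Ctrl-F1, at a log2 fold change of -0.77 ± 0.44 (edgeR adjusted p = 0.604). Ttll4 had 34 and 31 counts in KO-F1 liver against 49 and 48 in Ctrl-F1 (-0.25 ± 0.38, edgeR adjusted p = 0.874). In the same order, Ttll5 had 109 and 79 against 86 and 108 (0.28 ± 0.27, edgeR adjusted p = 0.772). Rsph3a had 49 and 53 counts in KO-F1 against 62 and 63 in Ctrl-F1. Ttll1 had 24 and 41 against 59 and 33, and Ttll12 133 and 122 against 148 and 176. Scaled by TMM, the groups of the last 3 overlapped. DESeq2 called 0 of 20 members with a count in liver, against 0.0452% of genes higher and 0.084% lower, and the median log2 fold change of the 6 was -0.09.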

How the data were processed

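RNA-seq of 6 spermatozoa and 4 liver libraries was used, out of 47 samples in the series; the others were not analysed here. The deposited values are raw read counts per gene: the authors aligned single-end reads to GRCm38 with HISAT2 (2.1.0), kept uniquely aligned reads and counted them with featureCounts. The annotation and the strand setting are not given in the sources used here. Liver libraries were made with a stranded poly(A) kit and spermatozoa libraries by full-length amplification with PCR, so reads are not independent molecules. The tables of the 10 libraries were joined by symbol, and 4 lines of 2 repeated symbols were dropped.

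Each comparison was fitted on its 2 groups with edgeR (4.0.16), using TMM, filterByExpr with default settings (minimum count 10 and total 15) and the quasi-likelihood F test in R (4.3.3). Genes were called at an adjusted p under 0.01 (Benjamini-Hochberg, over all genes tested) with a fold of 2 or more. Standard errors were taken from the F statistic. DESeq2 (1.42.0; the authors used 1.16.1), other size factors, filters, counts thinned to the shallowest library compared, a joint model, late marker scaling and leaving out each replicate were alternatives. Scripts were tested on simulated data. The replicate numbers name different samples and pair none. Members with at least 10 CPM in both Ctrl-F1 spermatozoa libraries, called in any comparison or with an unadjusted p under 0.01 between spermatozoa groups were given with every value; of the other lists, called genes or at most the 3 most abundant were named. Positions and promoters are from GRCm38.p6. The members and lists were chosen with earlier results of these data known. With 2 libraries per group, the depth of 1503733 to 2778171 counts in F1 spermatozoa limits precision. The values of 1 listed gene are not reported here.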

Additional observations from a re-analysis of the deposited data

Results flagged for a closer look

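Ttll13 differed between the generations: its log2 fold change in KO-F2 over KO-F1 spermatozoa was 2.42 ± 0.33 (edgeR adjusted p = 0.00954), higher in 2 of 2 KO-F2 libraries. The call was lost in a model of all 3 groups (edgeR adjusted p = 0.0107), without either KO-F2 replicate (0.0153 and 0.0131) and with late marker scaling (0.26, adjusted p = 0.557). Its level in KO-F2 lay inside the range of Ctrl-F1. Ttll10 was below both Ctrl-F1 libraries in both KO-F1 libraries and above both in both KO-F2 libraries, at a log2 fold change of 0.41 for KO-F2 over Ctrl-F1; the direct difference between KO-F2 and KO-F1 had an edgeR adjusted p of 0.0122 and did not pass. Generation, mode of conception, background strain and sequencing run cannot be told apart here.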

How the results depend on the processing

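Scaling to late spermatogenesis markers, run for the 3 comparisons between spermatozoa, turned directions in those with KO-F1. With TMM scaling these markers were themselves lower in KO-F1, so the scaling shifts all genes and such a turn is no separate test. In KO-F1 against Ctrl-F1 spermatozoa the members' median became 0.35 and those with both KO-F1 libraries lower fell from 17 to 1, with log2 fold changes of 0.16 for Ttll10, 0.16 for Rsph1, 0.56 for Rsph6a, 0.80 for Rsph3a, 0.57 for Tekt1, 0.27 for Tekt2, 0.42 for Tekt3, 0.57 for Tekt4, 0.075 for Dnali1, 0.42 for Dnaic1, 0.34 for Dnahc8 and 0.13 for Dnahc17. In KO-F2 against KO-F1 the median became -0.66 and those with both KO-F2 libraries higher came to 2, with -0.074 for Ttll10, -0.33 for Rsph9, -1.23 for Rsph6a, -0.20 for Dnali1, -0.60 for Dnaic1, -1.07 for Tekt1, -0.61 for Tekt2, -0.82 for Tekt4, -0.35 for Ttll6, -0.71 for Dnahc8 and -0.48 for Dnahc17. In KO-F2 against Ctrl-F1 the median became -0.35 and 8 members had both KO-F2 libraries lower. Why the late markers differed between groups was not tested. Members called in KO-F2 against KO-F1 numbered 5 with DESeq2 (7.48% of all genes called higher), 9 without a filter (9.84%), 9 with 10 counts in every library (14.7%), 9 at an adjusted p under 0.05 (14.2%), 3 with thinned counts (5.26%, median 1.25) and 0 in a model of all 3 groups (1.36%), against 1 (2.11%) as reported. Late marker scaling called 0 members higher and 1, Rsph3a, lower there, against 0.37% and 35.3% of all genes. In KO-F1 against Ctrl-F1, DESeq2 called 1 lower (1.58% of genes) and the filter of 10 counts 1 lower (1.89%). Between spermatozoa and liver the filter of 10 counts, which removes members absent from liver, left 3 calls and a median of 2.096; the median was 6.66 without a filter, 8.36 with thinned counts and 8.09 without Rsph3a and Rsph3b.

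Leaving out each replicate in turn, the members' median ranged from -1.56 to -0.83 in KO-F1 and from -0.44 to 0.35 in KO-F2 against Ctrl-F1. For all genes these 2 medians ranged from -0.069 to 0.24 and from -0.0042 to 0.43. The members' median ranged from 1.19 to 1.65 in KO-F2 against KO-F1, from -0.19 to 0.073 in liver and from 6.64 to 7.84 between tissues. In 2 against 1 library, the lone library is assumed to vary like the others. Ttll12 became 0.081 without Ctrl-F1 spermatozoa replicate 1 and -9.87, a fitted value against 0 counts, without replicate 2. Same-numbered samples share only a number, with correlations of their deviations from -0.16 to 0.15. With the replicate block 3 members were called in KO-F2 against KO-F1 (Rsph1, Ttll10 and Ttll13), while the share of all genes called higher went from 2.11% to 4.92%. In KO-F2 against Ctrl-F1 the block raised the genes called higher from 0 to 215 and lower from 0 to 147, none of them members. In the other comparisons the members' number of calls was the same. With 1503733 counts in the shallowest library, members with a few counts could not be compared.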
